A study of Rattus norvegicus with 15 samples.

Results

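The 10 genes described here make or use serine as a source of one-carbon units: Phgdh, Psat1, Psph, Shmt1, Shmt2, Mthfd1, Mthfd2, Mthfd1l, Aldh1l2 and Slc1a4. They were taken by name from a table of gene expression in rat tissues, and each name occurred once among the 34357 rows that carry a gene identifier. The list was selected on measured values, with earlier results of the same data known: it holds Phgdh, which had one of the smallest p-values between the genotypes in artery. The difference between genotypes in artery is therefore given as a description, with no test, and the tests below concern the kidneys and the difference between the tissues.

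The animals were Dahl salt-sensitive (SS) rats, an inbred strain that becomes hypertensive on a high-salt diet. One genotype was wild-type. The other lacked a noncoding interval of 30.4 kb (rn7 chr2:60825801-60856216), the rat counterpart of the human rs1173771 linkage disequilibrium region. RNA-seq of total RNA was made from mesentery artery (4 wild-type, 4 deletion) and kidney cortex (3 wild-type, 4 deletion), all from rats that the sample titles call male; age, diet and the number of founder lines are not given in the sources used here. The labels do not tie libraries to separate animals, so the p-values measure the spread between libraries, which may be technical.

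Serine is made from the glycolytic intermediate 3-phosphoglycerate in a chain of reactions: Phgdh oxidises it, Psat1 transfers an amino group onto the product, and Psph removes the phosphate. Serine hydroxymethyltransferase then splits serine into glycine and a one-carbon unit carried by folate, in the cytosol (Shmt1) or in mitochondria (Shmt2). Mthfd1 interconverts the folate-bound units in the cytosol, while Mthfd2, Mthfd1l and Aldh1l2 oxidise or release them in mitochondria; the units feed the synthesis of purines and thymidylate and the methylation of homocysteine. Slc1a4 is a carrier of serine and other neutral amino acids in the plasma membrane. The proximal tubule of the kidney is known as a site of serine synthesis and release, and several of these genes are textbook targets of the transcription factor Atf4, which is induced when amino acids are short.

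Values are FPKM (fragments scaled by gene length and by library size), so levels can be compared between genes. Read depths are unknown and no counting error can be given; summed FPKM ranged from 285679 to 433477 over arteries and from 376270 to 459847 over kidneys. Defining markers were as the tissue labels say: the smooth muscle actin gene Acta2 averaged 796 FPKM ± 234 (SD, n = 8) in artery, and Slc34a1, a phosphate carrier of the proximal tubule, averaged 0.343 ± 0.378 (SD) over the 8 arteries, against 1039 ± 111 (SD) over the 7 kidneys. The artery libraries also held RNA of fat cells, with Adipoq between 530 and 1053 FPKM, and of lymphocytes, most in wild-type artery 3. Of the kidneys, the library labelled wild-type 3 went against its label male, with Xist, the RNA of the inactive X chromosome, at 81.1 FPKM and Kdm5d, Uty and Eif2s3y of the Y chromosome listed at 0. Kidney deletion 2 had the lowest proximal tubule and the highest podocyte levels of the 7 kidneys. Results that rest on these 2 kidneys are given with and without them, except where stated.

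The 250 bases upstream of the annotated start of Psat1, Phgdh, Shmt1 and Slc1a4 are shown because the first pair held the highest levels in artery, Shmt1 had the most negative log2 difference between artery and kidney, and Slc1a4 held the only Atf4-type match. They are RefSeq sequences of GRCr8, another assembly than the rn7 of the expression table, printed 5′ to 3′ along the gene and all on the minus strand; 8 of the 10 genes matched the promoter table, and Mthfd1 and Aldh1l2 did not. Capitals mark matches, on either strand, to 3 motifs: TGATGNAA, a form of the Atf4 composite element, CACGTG, the E-box, and CCAAT. No matches of different motifs overlapped in these sequences.
Psat1 (chr1:222645409-222645658): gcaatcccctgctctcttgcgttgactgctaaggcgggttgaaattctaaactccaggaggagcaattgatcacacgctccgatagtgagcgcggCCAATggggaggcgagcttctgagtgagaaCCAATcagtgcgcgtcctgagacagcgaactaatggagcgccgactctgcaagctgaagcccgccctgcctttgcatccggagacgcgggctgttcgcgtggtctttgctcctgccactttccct
Phgdh (chr2:188624790-188625039): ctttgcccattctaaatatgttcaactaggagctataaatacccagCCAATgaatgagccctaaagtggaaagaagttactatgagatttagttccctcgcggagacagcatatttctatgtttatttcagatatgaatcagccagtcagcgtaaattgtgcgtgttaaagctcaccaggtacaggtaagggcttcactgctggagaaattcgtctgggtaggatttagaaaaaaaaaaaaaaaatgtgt
Shmt1 (chr10:45990342-45990591): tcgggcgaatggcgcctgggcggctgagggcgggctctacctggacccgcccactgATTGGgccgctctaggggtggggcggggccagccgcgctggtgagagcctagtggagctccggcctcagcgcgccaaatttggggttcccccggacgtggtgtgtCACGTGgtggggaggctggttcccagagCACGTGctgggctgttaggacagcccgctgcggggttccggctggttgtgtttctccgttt
Slc1a4 (chr14:98761563-98761812): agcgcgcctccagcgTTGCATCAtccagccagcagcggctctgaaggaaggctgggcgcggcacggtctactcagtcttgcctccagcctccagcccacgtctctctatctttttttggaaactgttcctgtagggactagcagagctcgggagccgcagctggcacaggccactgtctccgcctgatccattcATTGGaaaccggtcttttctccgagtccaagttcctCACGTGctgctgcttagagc

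Psat1 held CCAAT at 155 to 151 and at 125 to 121 bases before the start, and Phgdh held 1 CCAAT at 204 to 200 bases. Shmt1 held CACGTG at 89 to 84 and at 61 to 56 bases before the start, and CCAAT on the opposite strand at 194 to 190. Slc1a4 held the opposite-strand form of TGATGNAA, TTGCATCA, at 235 to 228 bases, CACGTG at 20 to 15 bases and CCAAT on the opposite strand at 56 to 52. Among the 8 genes, TGATGNAA was found in 1, CACGTG in 2 and CCAAT in 5. Among all 33469 promoter sequences of the same length, TGATGNAA was found in 1139 (3.40%), CACGTG in 1872 (5.59%) and CCAAT in 11385 (34.0%). A match describes the letters of this window and does not show that a factor binds there.

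The first 2 enzymes of serine synthesis were among the more abundant transcripts of both tissues. Phgdh (rn7 chr2:185906962-185936054, minus strand), the first enzyme of the chain and the only 1 of the 10 genes on the chromosome of the deleted interval, stood at 20.9, 18.9, 22.2 and 23.2 FPKM in wild-type arteries 1 to 4 and at 29.1, 32.7, 33.4 and 28.1 in deletion arteries 1 to 4. In the kidneys its level was 28.4, 48.8 and 45.6 in wild-type 1 to 3 and 34.5, 17.9, 41.8 and 43.9 in deletion 1 to 4. The artery groups did not overlap, whereas the kidney groups did, with the lowest kidney, deletion 2, below every artery.

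Psat1 (chr1:213196709-213218564, minus strand), the aminotransferase of the second step, was the most abundant of the 10 in every group. Its artery libraries held 33.6, 22.6, 26.2 and 26.2 FPKM for wild-type and 32.2, 39.0, 40.9 and 25.4 for deletion. Its kidney libraries held 110, 120 and 113 in wild-type and 110, 63.7, 118 and 120 in deletion. Every kidney was above every artery, and 6 of the 7 kidneys lay close together, with deletion 2 apart below them. Psph (chr12:26882524-26905084, plus strand), the phosphatase that completes serine synthesis, was lower throughout: 4.18, 3.70, 2.64 and 4.24 FPKM in wild-type arteries and 4.35, 4.24, 3.56 and 4.09 in deletion arteries. The kidneys gave 11.7, 21.7 and 18.8 for wild-type and 13.4, 9.96, 20.8 and 19.6 for deletion. Here too the tissues did not overlap and the genotypes did in each.

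The cytosolic enzymes of the folate pathway were abundant in kidney and much lower, at middling levels, in artery. Shmt1 (chr10:45468698-45490833, minus strand) was measured at 3.93, 3.48, 7.36 and 4.08 FPKM in wild-type arteries and 2.38, 5.39, 4.71 and 3.96 in deletion arteries. In wild-type kidneys it was measured at 55.9, 62.3 and 80.7, and in deletion kidneys at 65.9, 31.9, 71.9 and 62.4. Wild-type artery 3 was the highest artery and still far below the lowest kidney. Mthfd1 (chr6:94977862-95045375, plus strand), the trifunctional cytosolic folate enzyme, showed a narrow range in artery, with 5.87, 7.60, 6.95 and 7.33 FPKM for wild-type and 7.15, 6.34, 6.36 and 7.11 for deletion. Kidney values were 61.2, 58.4 and 80.3 in wild-type and 61.0, 41.3, 68.2 and 60.8 in deletion. The highest kidney for both genes was wild-type 3, the library that went against its label, and the lowest was deletion 2.

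The mitochondrial enzymes did not share 1 pattern. Shmt2 (chr7:63358961-63364293, minus strand) followed the cytosolic enzymes, with 6.45, 8.42, 10.5 and 6.16 FPKM in wild-type arteries, 6.87, 7.96, 7.85 and 7.15 in deletion arteries, 48.2, 57.7 and 48.4 in wild-type kidneys and 48.2, 35.5, 58.0 and 52.5 in deletion kidneys. Mthfd2 (chr4:115811135-115822663, minus strand), the dehydrogenase and cyclohydrolase known for its activity in dividing cells, was at 2.53, 3.94, 5.36 and 8.94 in wild-type arteries and 2.13, 2.98, 3.53 and 4.24 in deletion arteries. Its kidney values were close to 1 FPKM, at 0.991, 0.943 and 1.08 in wild-type and 1.59, 1.73, 1.04 and 0.822 in deletion. Every artery was above every kidney for Mthfd2, in contrast to Shmt2, where every kidney was above every artery.

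Mthfd1l (chr1:40443926-40632911, plus strand), the mitochondrial synthetase that releases formate, stood at 2.37, 3.63, 5.70 and 4.34 FPKM in wild-type arteries, 2.63, 3.29, 2.68 and 3.86 in deletion arteries, 1.45, 2.08 and 1.46 in wild-type kidneys and 1.99, 2.68, 1.05 and 1.36 in deletion kidneys. Its tissues overlapped only through kidney deletion 2. Aldh1l2 (chr7:20254246-20305793, plus strand), which oxidises the one-carbon unit of formyl-folate to carbon dioxide, was at 3.24, 2.47, 1.56 and 1.88 in wild-type arteries and 2.62, 1.15, 2.93 and 2.25 in deletion arteries. It was near 0 in all kidneys, at 0.0430, 0.0731 and 0.0179 in wild-type and 0.0381, 0.0898, 0.0985 and 0.0637 in deletion. The carrier Slc1a4 (chr14:94530801-94560190, minus strand) was the gene whose tissues were most mixed, with 2.36, 3.37, 3.11 and 3.42 FPKM in wild-type arteries, 2.65, 1.68, 2.87 and 3.21 in deletion arteries, 3.21, 1.81 and 2.07 in wild-type kidneys and 4.81, 2.19, 3.64 and 2.59 in deletion kidneys.

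**Figure D1:**
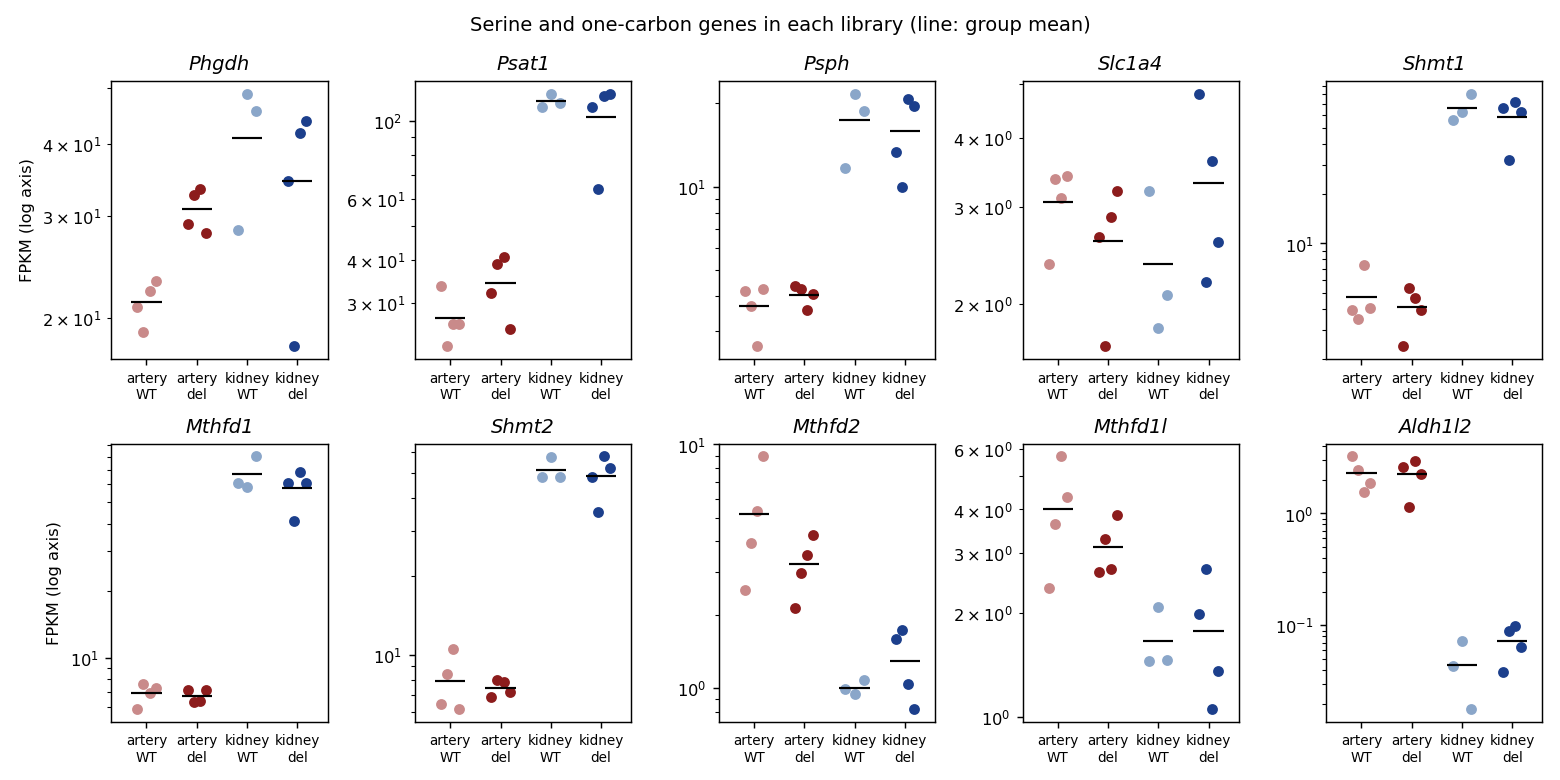
FPKM of each gene (log axis, a separate scale per panel) in every library of the 4 groups, with a line at each group mean; WT is wild-type and del is deletion. Phgdh is the only panel in which the wild-type and deletion arteries do not overlap, and Psat1, Psph, Shmt1, Mthfd1 and Shmt2 are higher in every kidney than in every artery.

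In artery, ordered by mean level, Psat1 (30.8 FPKM ± 6.74, SD, n = 8) and Phgdh (26.1 ± 5.51, SD, n = 8) came first, and their ranges overlapped. A gap followed, and then the other 8, from Shmt2 (7.68 ± 1.39, SD, n = 8) down to Aldh1l2 (2.26 ± 0.702, SD, n = 8), each with a range overlapping that of its neighbour. Against all 16470 genes measured in artery (mean of at least 0.5 FPKM), Psat1 lay at the 90.5th percentile, Phgdh at the 88.3rd and the other 8 between the 27.2nd and the 57.8th. In kidney the order was Psat1 (108 ± 19.9, SD, n = 7), Mthfd1 (61.6 ± 11.7, SD, n = 7), Shmt1 (61.6 ± 15.3, SD, n = 7), Shmt2 (49.8 ± 7.63, SD, n = 7), Phgdh (37.3 ± 11.0, SD, n = 7) and Psph (16.6 ± 4.77, SD, n = 7), with neighbouring ranges overlapping at each step. Below a gap came Slc1a4 (2.91 ± 1.06, SD, n = 7), Mthfd1l (1.73 ± 0.555, SD, n = 7) and Mthfd2 (1.17 ± 0.345, SD, n = 7), which overlapped in turn, and below a further gap Aldh1l2 (0.0606 ± 0.0291, SD, n = 7). Among the 15444 genes measured in kidney, Psat1 lay at the 96.6th percentile, Shmt1 and Mthfd1 at the 94.2nd, Shmt2 at the 92.5th and Phgdh at the 89.6th.

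The tissues differed in 9 of the 10 genes, 6 higher in kidney and 3 higher in artery, in a fit with limma over all 15 libraries (adjusted p under 0.05; fold changes are on the scale of log2(FPKM + 0.5), which understates those of low genes). Such differences were the rule between these tissues: 77% of the 16856 genes tested were called, 41.8% higher in artery and 35.2% higher in kidney. The libraries of the tissues did not overlap for 7 of the 10 genes, where 50% of all genes tested did not (25.5% higher in artery, 24.4% higher in kidney). The median log2 difference of all genes, artery minus kidney, was 0.11 as deposited and -0.03 after median-of-ratios scaling, and Slc1a4 was the only 1 of the 10 whose direction followed the scaling. In whole tissue, more cells of a type that expresses a gene and more RNA per cell cannot be told apart.

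Shmt1 was 12.8-fold higher in kidney (95% interval 9.50 to 17.4; log2 difference, artery minus kidney, -3.68 ± 0.20 SE; limma adjusted p = 1.34e-10). Its cytosolic partner Mthfd1 was 8.44-fold higher in kidney (7.20 to 9.89; limma adjusted p = 4.45e-13). The mitochondrial Shmt2 was 6.19-fold higher in kidney (5.17 to 7.40; limma adjusted p = 1.37e-11). Of the serine synthesis enzymes, Psph was 3.82-fold (2.98 to 4.88; limma adjusted p = 2.94e-08) and Psat1 3.50-fold higher in kidney (2.82 to 4.34; limma adjusted p = 1.31e-08). Phgdh, which starts the chain, was 1.40-fold higher in kidney (1.09 to 1.80; log2 difference -0.49 ± 0.17 SE; limma adjusted p = 0.0163), and its tissues overlapped. This fold averages both genotypes, and it includes the artery values of Phgdh that chose the list. Its mean was 21.3 FPKM in wild-type arteries against 41.0 in wild-type kidneys. For deletion the means were 30.8 in artery and 34.5 in kidney. Whether the tissue difference of Phgdh depends on genotype was not tested. That call was lost under quantile normalization (log2 difference -0.20, limma adjusted p = 0.238) and without kidney wild-type 2 (log2 difference -0.42, limma adjusted p = 0.0515).

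On the artery side, Aldh1l2 was 4.80-fold higher than in kidney (95% interval 3.76 to 6.13; limma adjusted p = 3.98e-09), a value held down by the pseudocount, since its kidney mean was 0.0606 FPKM. Mthfd2 was 2.68-fold higher in artery (1.96 to 3.68; limma adjusted p = 1.73e-05) and Mthfd1l 1.82-fold (1.39 to 2.38; limma adjusted p = 0.00048). All 3 are mitochondrial enzymes downstream of Shmt2. For Slc1a4 the log2 difference was 0.03 ± 0.17 SE (95% interval -0.33 to 0.39; limma adjusted p = 0.876), and it was -0.10 after median-of-ratios scaling and -0.17 after quantile normalization. Without kidney wild-type 3 and kidney deletion 2, 9 of the 10 were again called, 3 of them higher in artery and 6 higher in kidney. That fit called 12792 of all 16892 genes tested, 6959 higher in artery and 5833 higher in kidney.

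**Figure D2:**
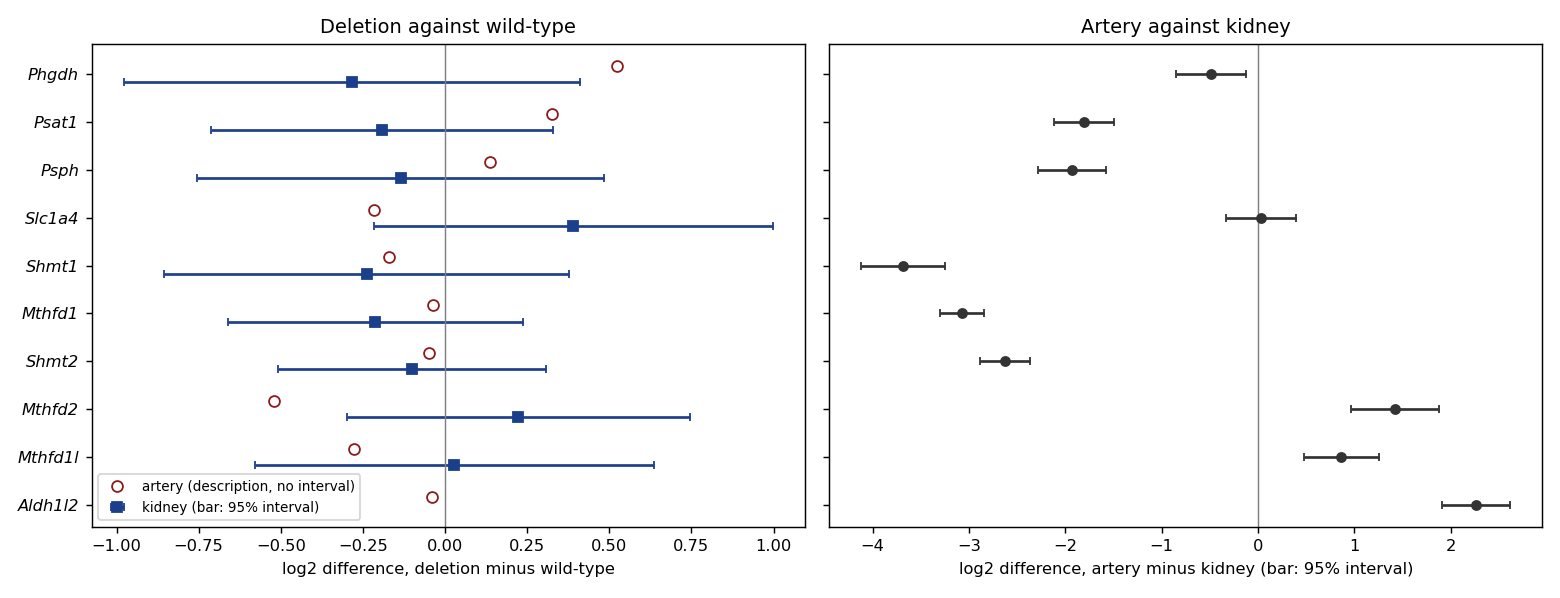
Left, log2 difference between deletion and wild-type for each gene in artery (open circles, description only) and in kidney (squares with 95% intervals; Aldh1l2 was too low to test there); right, log2 difference between artery and kidney with 95% intervals. All 9 kidney intervals on the left include 0, while on the right 9 of 10 intervals exclude it, Shmt1 lying lowest at -3.68 and Aldh1l2 highest at 2.26.

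Ratios of genes within a library do not depend on how libraries are scaled, and 4 were compared between the tissues with exact two-sided permutation tests over the 15 libraries (p-values adjusted over the 4). The ratio of the mitochondrial to the cytosolic serine hydroxymethyltransferase, Shmt2 to Shmt1, had a geometric mean of 1.80 in artery (range 1.43 to 2.89) and 0.827 in kidney (0.600 to 1.11), so that the mitochondrial gene led in every artery and in 1 of 7 kidneys, deletion 2. The log2 difference was 1.12 (exact permutation p = 0.000311, adjusted 0.000414), and 0.000311 is the smallest p that 6435 arrangements allow. For Mthfd1l to Mthfd1 the geometric mean was 0.503 in artery (0.367 to 0.820) and 0.0273 in kidney (0.0155 to 0.0649), a log2 difference of 4.20 with the same exact permutation p. For both pairs the transcripts were weighted further towards the mitochondrial enzyme in artery than in kidney, in all libraries.

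Within serine synthesis, the ratio of Phgdh to Psat1 was 0.848 in artery (0.621 to 1.10) and 0.337 in kidney (0.259 to 0.407). Its log2 difference of 1.33 also reached the smallest p that the exact permutation test allows (0.000311, adjusted 0.000414), and the tissues did not overlap. The ratio of Psat1 to Psph, the next pair of the chain, was 7.87 in artery (6.11 to 11.5) and 6.64 in kidney (5.53 to 9.40), with overlapping libraries and a log2 difference of 0.25 (exact permutation p = 0.163, adjusted 0.163). Psat1 stood above Phgdh in every kidney and in 7 of the 8 arteries, the exception being deletion 4.

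**Figure D3:**
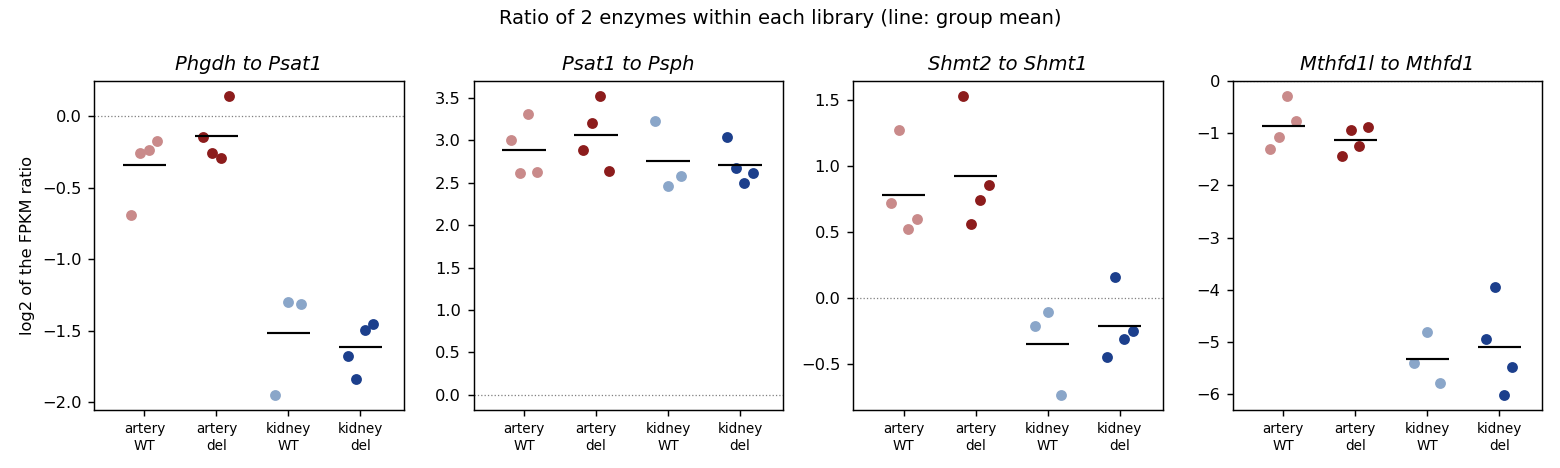
Log2 of the FPKM ratio of 2 enzymes in each library by group, with a line at the group mean and a dotted line at equal levels where it falls in range. The arteries lie above the kidneys without overlap for Phgdh to Psat1, Shmt2 to Shmt1 and Mthfd1l to Mthfd1, while Psat1 to Psph overlaps.

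Between the genotypes in artery, the contrast that brought these genes up, the fitted log2 difference, deletion minus wild-type, was positive for 3 of the 10, Phgdh, Psat1 and Psph, where it was positive for 59.7% of all 16470 genes tested. That share depends on scaling: it was 49.6% after median-of-ratios scaling and 51.9% after quantile normalization, with 3 of the 10 positive in both. All counts of positive differences in artery below are as deposited, where the median of all genes was 0.04, against -0.002 after median-of-ratios scaling. In the fit to all genes 0% were called (limma; 863 at an unadjusted p under 0.05). Phgdh had means of 21.3 FPKM ± 1.87 (SD) over the 4 wild-type libraries, against 30.8 ± 2.63 (SD) over the 4 deletion libraries and a log2 difference of 0.52. Psat1 averaged 27.2 ± 4.65 (SD, n = 4) and 34.4 ± 7.05 (SD, n = 4), a log2 difference of 0.32, with deletion 4 inside the wild-type range. Psph averaged 3.69 ± 0.743 (SD, n = 4) and 4.06 ± 0.352 (SD, n = 4), a log2 difference of 0.14. The libraries of Psat1 and Psph overlapped between the genotypes.

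The other 7 had log2 differences from -0.52 to -0.04. Mthfd2 had the most negative, with 5.19 ± 2.75 (SD) over the 4 wild-type libraries, against 3.22 ± 0.888 (SD) over the 4 deletion libraries; the deletion libraries, from 2.13 to 4.24, lay within or below the wild-type range of 2.53 to 8.94. For Mthfd1l the difference was -0.28, for Slc1a4 -0.22 and for Shmt1 -0.17, and for Shmt2, Mthfd1 and Aldh1l2 it lay between -0.05 and -0.04. Phgdh was the only 1 of the 10 whose genotypes did not overlap in artery, where 3.25% of all genes tested did not overlap, 2.3% higher in deletion and 0.953% lower.

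Marker levels of several cell types differed on average between the artery genotypes, or stood high in single arteries. The fitted log2 difference, deletion minus wild-type, was positive for all 5 mesothelial markers (median 0.93), whose summed FPKM ran from 1.94 to 33.1 over wild-type and from 3.77 to 160 over deletion arteries. It was positive for all 6 Schwann cell markers (median 0.30; sums of 315 to 479 and 487 to 561), whose sum is mostly S100b, a gene that fat cells also express. Positive, too, were all 8 smooth muscle markers (median 0.15) and all 10 adipocyte markers (median 0.14; sums of 2022 to 2722 and 1929 to 3624). It was negative for all 6 red blood cell markers (median -0.77), all 5 intestinal epithelium markers (median -0.74), 6 of 7 B and T cell markers (median -0.38) and all 6 macrophage markers (median -0.30). The intestinal markers summed to 33.5 FPKM in wild-type artery 1, against 0.175 to 3.47 in the other 7 arteries. The part of any of these cell types in the Phgdh difference was not tested. Shmt1, Shmt2 and Mthfd1l were each highest in wild-type artery 3, where the B and T cell markers summed to 128 FPKM, against 16.1 to 76.7 in the other 7 arteries. Mthfd2 was highest in wild-type artery 4, where the red blood cell markers summed to 114553 FPKM, against 3897 to 36086 in the other 7 arteries; the part of blood or lymphocytes in these values was not tested.

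In kidney, none of the 9 genes that could be tested passed the test between the genotypes, with 0 called by limma and 0 at an unadjusted p under 0.05. Aldh1l2 did not pass the filter on low values. The whole kidney comparison called 0% of 15444 genes (limma; 217 at an unadjusted p under 0.05). The log2 difference of Phgdh, deletion minus wild-type, was -0.28 ± 0.31 SE (95% interval -0.98 to 0.41; limma adjusted p = 0.999). For Psat1 it was -0.19 ± 0.23 SE (-0.71 to 0.33) and for Psph -0.14 ± 0.28 SE (-0.76 to 0.49). Whether the deletion effect differs between the tissues was not tested, since the artery values chose the genes.

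Of the folate enzymes in kidney, Shmt1 had a log2 difference of -0.24 ± 0.28 SE (95% interval -0.85 to 0.38), Mthfd1 of -0.21 ± 0.20 SE (-0.66 to 0.24) and Shmt2 of -0.10 ± 0.18 SE (-0.51 to 0.31). For Mthfd2 it was 0.22 ± 0.23 SE (-0.30 to 0.74) and for Mthfd1l 0.03 ± 0.27 SE (-0.58 to 0.64), which turned to -0.04 after median-of-ratios scaling. For Slc1a4 it was 0.39 ± 0.27 SE (-0.22 to 0.997), with means of 2.37 FPKM ± 0.743 (SD) over the 3 wild-type kidneys and 3.31 ± 1.17 (SD) over the 4 deletion kidneys. Each of these had a limma adjusted p of 0.999, and in each the genotypes overlapped, as they also did for Aldh1l2; of all genes tested in kidney, 2.55% did not overlap between the genotypes, 1.54% higher in deletion and 1.01% lower. With limma array weights, which give libraries unequal weight, 282 of all genes were called in kidney, and Slc1a4 was among them (log2 difference 0.81, limma adjusted p = 0.0491).

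The direction in kidney depended on single libraries. The 9 genes had a median log2 difference of -0.14, with 3 positive. Without deletion 2 the median was 0.02, with 7 positive, a value too near 0 to give a direction. Without wild-type 2 it was -0.016, with 4 positive. Without both deletion 2 and wild-type 3 it was 0.10, with 7 positive. Deletion 2 was the lowest of the 7 kidneys for Phgdh, Psat1, Psph, Shmt1, Shmt2 and Mthfd1, the 6 genes that are higher in kidney than in artery, and the highest for Mthfd2 and Mthfd1l. Relative to the median of the other kidneys it held 0.417 of the Phgdh, 0.552 of the Psat1, 0.519 of the Psph and 0.496 of the Shmt1 level. Less marked were Mthfd1, at 0.676, and Shmt2, at 0.703. On the other side stood Mthfd2, at 1.70, and Mthfd1l, at 1.85.

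The cell type markers of the same library were displaced as well. All 10 proximal tubule markers were below the other kidneys, with a median ratio of 0.586, beside a median of 0.535 for the 6 kidney-high genes, while the podocyte markers had a median ratio of 2.11 (all 5 above), the smooth muscle markers 1.84, the endothelial markers 1.42 and all genes 1.12. The proximal tubule markers summed to 3854 FPKM there and to between 5818 and 7229 in the other 6 kidneys. The part of proximal tubule content in the low values of this library was not tested. The other unusual kidney, wild-type 3, had the highest Shmt1 and Mthfd1 levels of the 7, at 1.29 and 1.32 times the median of the others. Its proximal tubule markers had a median ratio of 0.902, beside 0.899 for all genes, and summed to 7124 FPKM.

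**Figure D4:**
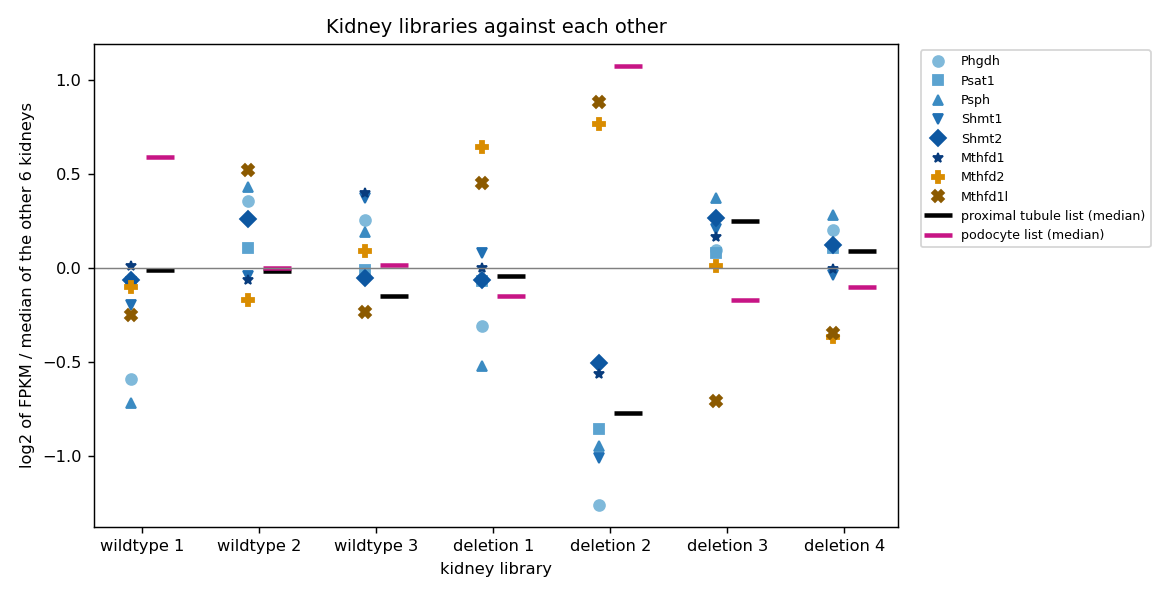
Log2 of the ratio of each kidney library to the median of the other 6, for the 6 genes higher in kidney (blue), Mthfd2 and Mthfd1l (orange and brown), and the medians of the proximal tubule and podocyte marker lists (bars). In deletion 2 the blue genes lie below 0 together with the proximal tubule list, and Mthfd2, Mthfd1l and the podocyte list lie above it.

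The pooled SD of Phgdh within the kidney groups was 0.526 on the scale of log2(FPKM + 0.5), at the 92.0th percentile of the genes tested in kidney, against a median of 0.252 for all genes. Psph (0.471) and Shmt1 (0.447) were also among the more variable, and Shmt2 (0.252) was at the median. These SDs include kidney deletion 2, the lowest kidney for each of these genes, and were not computed without it. The ratios of genes within a library were also compared between the kidney genotypes. Their log2 differences, deletion minus wild-type, were 0.14 for Shmt2 to Shmt1, 0.23 for Mthfd1l to Mthfd1, -0.09 for Phgdh to Psat1 and -0.05 for Psat1 to Psph, all with an adjusted exact permutation p of 0.914; 4 against 3 libraries cannot give a p below 0.0571. In artery the same differences, given without a test, were 0.14, -0.27, 0.20 and 0.17.

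Other genes of serine and glycine metabolism were taken as a list of 24 carriers and enzymes that use or break down these amino acids, of which 22 could be tested between the tissues. In limma, 14 were called higher in kidney, 5 higher in artery and 3 in neither direction, with a median log2 difference of -1.18. Of all genes tested, 35.2% were called higher in kidney and 41.8% higher in artery. Agxt2, a mitochondrial aminotransferase of glyoxylate, averaged 0.285 FPKM ± 0.196 (SD) over the 8 arteries, against 371 ± 79.6 (SD) over the 7 kidneys. Gatm, which uses glycine in the first step of creatine synthesis, averaged 5.76 ± 0.969 (SD, 8 arteries) and 1471 ± 378 (SD, 7 kidneys). In the other direction were 2 carriers: Slc7a10, which exchanges small neutral amino acids including serine, at 11.9 ± 4.04 (SD) over the 8 arteries, against 0.337 ± 0.155 (SD) over the 7 kidneys, and Slc1a5, a glutamine and serine carrier of the same family as Slc1a4, at 48.8 ± 9.75 (SD, 8 arteries) and 4.35 ± 0.777 (SD, 7 kidneys). The tissues did not overlap for Slc1a5, and did for Slc1a4.

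The 18 further genes of the folate cycle were all testable: 13 were called higher in kidney, 4 higher in artery and 1 in neither direction, with a median log2 difference of -0.81. For this list and the next, the shares of all genes tested were 35.2% called higher in kidney and 41.8% higher in artery. Folr1, the folate receptor known in the proximal tubule, averaged 0.229 FPKM ± 0.118 (SD) over the 8 arteries, against 247 ± 67.4 (SD) over the 7 kidneys. Ggh, which trims the glutamate tail of folates, averaged 4.55 ± 1.47 (SD, 8 arteries) and 77.1 ± 25.4 (SD, 7 kidneys). Folr2, a folate receptor known on macrophages, was higher in artery at 7.76 ± 1.49 (SD, n = 8) against 2.85 ± 0.653 (SD, n = 7), as was the folate carrier Slc46a1. In the methionine cycle, betaine and transsulfuration list, 15 of the 16 tested were called higher in kidney (median log2 difference -3.13), among them Bhmt2, which methylates homocysteine, at 0.0777 ± 0.141 (SD) over the 8 arteries, against 157 ± 29.7 (SD) over the 7 kidneys, and Dmgdh of choline breakdown. The 1 called higher in artery was Mtrr, the reductase that keeps methionine synthase active, at 11.0 ± 0.775 (SD, n = 8) against 9.31 ± 1.32 (SD, n = 7).

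Purine synthesis, a user of one-carbon units, had 5 of 8 genes called higher in kidney, 1 higher in artery and 2 in neither direction, beside the 77% of all genes called, with a median log2 difference of -0.30 (Gart and Atic of this list are also in the folate list). Its first committed enzyme, Ppat, averaged 5.37 FPKM ± 0.715 (SD) over the 8 arteries, against 15.3 ± 0.834 (SD) over the 7 kidneys, and Prps2, which makes the ribose donor, 47.6 ± 7.52 (SD, 8 arteries) and 21.2 ± 3.82 (SD, 7 kidneys). Of Atf4 and its textbook targets, 27 of 30 were tested. Of these, 13 were called higher in artery, 9 higher in kidney and 5 in neither direction, with a median log2 difference of 0.19. Among all genes tested, 77% were called, 41.8% higher in artery and 35.2% higher in kidney. Atf5, an Atf4-related factor, averaged 79.2 ± 13.6 (SD) over the 8 arteries, against 11.4 ± 1.45 (SD) over the 7 kidneys, and Eif4ebp1, a brake on translation, 12.8 ± 1.71 (SD, 8 arteries) and 1.57 ± 0.407 (SD, 7 kidneys). The stress hormone Gdf15 was higher in kidney, at 4.18 ± 2.18 (SD, n = 7) against 0.139 ± 0.196 (SD, n = 8). The median log2 difference of the 10 serine and one-carbon genes was -1.15, beside 0.11 for all genes tested.

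**Figure D5:**
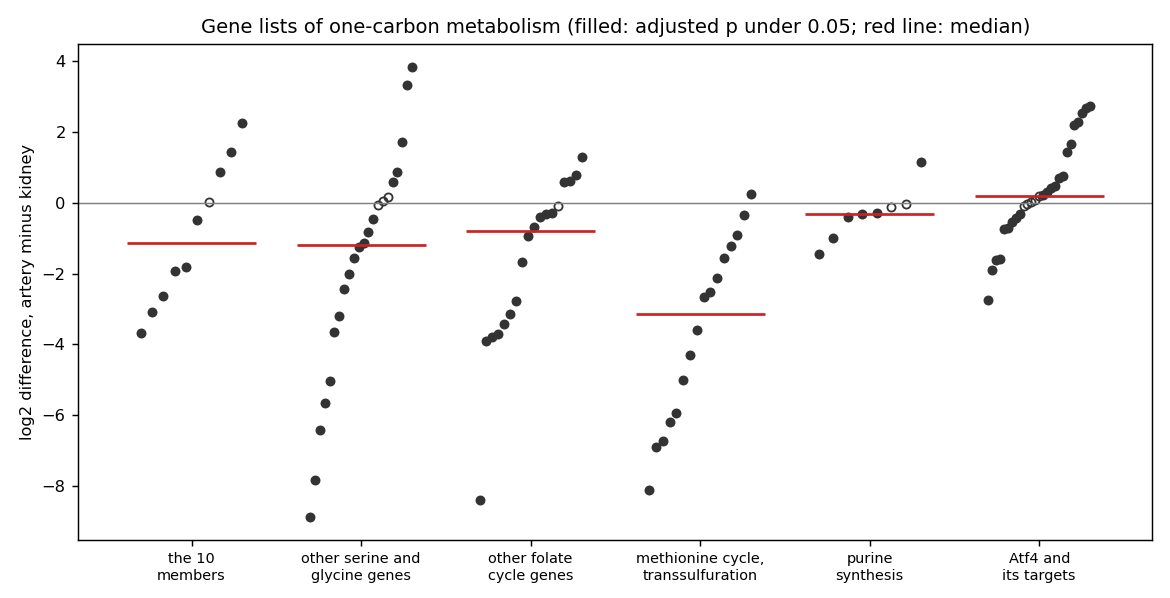
Log2 difference between artery and kidney for each tested gene of the 10 serine and one-carbon genes and of the 5 related lists, in ascending order; filled points passed an adjusted p of 0.05 and red lines mark list medians. The methionine and transsulfuration list lies lowest, with a median of -3.13, and the Atf4 list is spread on both sides of 0.

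Between the kidney genotypes none of these lists had a gene called by limma, and 1 gene, Gnmt of the methionine cycle, was at an unadjusted p under 0.05. In artery, again as a description and with 0% of all genes called, 16 of 20 serine and glycine genes had a positive log2 difference, deletion minus wild-type, with a median of 0.21, beside 59.7% and a median of 0.04 for all genes. The largest differences were those of Gcat, which cleaves the threonine product to glycine, at 2.46, 1.40, 1.99 and 2.25 FPKM for wild-type and 2.93, 5.04, 2.07 and 3.14 for deletion, and of Sdsl, a serine dehydratase-like enzyme, at 0.246, 0.488, 0.475 and 0.601 in wild-type and 0.855, 1.22, 0.693 and 0.590 in deletion. Both overlapped between the genotypes. In the folate list, 10 of 16 differences were positive (median 0.09), with Aldh1l1, the cytosolic counterpart of Aldh1l2, at 3.38, 2.62, 2.97 and 3.18 in wild-type and 3.37, 6.95, 4.30 and 3.76 in deletion. Deletion artery 2, the highest for Gcat, Sdsl and Aldh1l1, was also the highest for Adipoq, at 1053 FPKM, and for the mesothelial markers, at a sum of 160; the part of fat or mesothelium in these values was not tested.

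In the methionine list 10 of 11 differences in artery were positive, with a median of 0.03, below the 0.04 of all genes. Its largest differences belonged to Sardh, which frees a one-carbon unit from sarcosine, at 7.48, 8.85, 7.11 and 7.16 FPKM for wild-type and 10.3, 9.06, 10.1 and 10.7 for deletion, and to Aldh7a1, a betaine aldehyde dehydrogenase, at 13.4, 12.4, 10.8 and 12.2 in wild-type and 13.9, 16.1, 17.7 and 14.3 in deletion. Neither overlapped between the genotypes, where 3.25% of all genes tested did not, 2.3% higher in deletion. In the purine list 5 of 8 differences were positive (median 0.05). The Atf4 list had 17 of 26 positive (median 0.05), and its 2 largest differences ran in opposite directions: the amino acid carrier Slc7a5 averaged 2.39 ± 1.48 (SD) over the 4 wild-type libraries, against 1.42 ± 0.542 (SD) over the 4 deletion libraries, and Trib3, a pseudokinase, 0.738 ± 0.298 (SD, n = 4) and 1.24 ± 0.370 (SD, n = 4). Of this list 1 gene did not overlap between the artery genotypes, Iars1, an aminoacyl-tRNA synthetase, which is named after its values were seen: it stood at 11.9, 11.5, 12.2 and 11.6 FPKM for wild-type and 11.1, 11.0, 11.3 and 10.7 for deletion, a log2 difference of -0.10.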

How the data were processed

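RNA-seq of total RNA gave 15 libraries, grouped by the tissue and genotype of the sample labels. The authors deposited 1 table of FPKM values on rn7; the sources used here do not name the tool that made them. Per the submitters' processing notes, Trim Galore 0.6.2, HISAT2 2.2.1 and DESeq2 1.46.0 were used, with no role stated. Of 40694 rows, 34357 with a gene identifier were kept; the other 6337 were 0 throughout. A coverage column of no stated sample (1 column) was not used. Depth could not be recovered from the FPKM values, so no counting interval is given.

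Values were analysed as log2(FPKM + 0.5) with limma 3.58.1 in R 4.3.3 (trend and robust moderation), for genes whose mean over the fitted libraries reached 0.5 FPKM, within each tissue and, as a model of the 4 group means, between tissues. P-values are two-sided and Benjamini-Hochberg adjusted over all genes tested, with calls at an adjusted p under 0.05; intervals are 95%. The fit was also run on simulated data with an equal spread for every gene, which these libraries do not have, so no result rests on that run. Ratios of genes were tested by exact permutation with scipy 1.17.1. The members and lists were chosen with earlier results of these data known. All 10 genes are named with every library's value. Of each other list, genes were named from those called between tissues with the largest differences (at most 2 in each direction). The 2 genes with the largest differences in artery were eligible too. Slc3a2, Paics, Mtfmt and Pfas met this rule but are not described, nor is the artery difference of Gart. Alternatives were pseudocounts of 0.1 and 1, other filters, scalings and moderation, array weights, a replicate block, wild-type libraries only, leaving out each library, and an adipocyte covariate; covariates for B and T cells, Schwann cells and proximal tubule, and leaving out 2 kidneys together, were added after seeing the data. Promoter sequences were matched by symbol to a RefSeq table of GRCr8.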

Additional observations from a re-analysis of the deposited data

Results flagged for a closer look

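Of 42 sets of values examined (each gene or ratio in each group of 4 libraries), 2 held a library far from the other 3 by Dixon's criterion, and chance gives about 1 in 20. Shmt1 stood at 7.36 FPKM in wild-type artery 3, against 3.48 to 4.08 in the other wild-type arteries; the gap made up 0.846 of the range, above the critical 0.829. The same library held the most B and T cell marker RNA, and the part of those cells was not tested. The log2 ratio of Phgdh to Psat1 was -0.69 in wild-type artery 1, the lowest of its group (0.84 of the range), where Psat1 was at 33.6 FPKM and Phgdh at 20.9. Among the arteries that library held the most intestinal epithelium marker RNA, at a sum of 33.5 FPKM, and the part of such cells was not tested.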

How the results depend on the processing

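The 9 tissue calls kept their direction under every alternative run, and only that of Phgdh was lost, as given above. With wild-type libraries only, the log2 ratios between tissues were 1.13 (Shmt2 to Shmt1), 4.48 (Mthfd1l to Mthfd1) and 1.18 (Phgdh to Psat1), each with an adjusted exact permutation p of 0.0762, since 3 against 4 libraries cannot reach the threshold. Slc1a4 between tissues was -0.10 with median-of-ratios scaling, -0.17 with quantile normalization and -0.076 without kidney wild-type 3 and deletion 2.

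In kidney, array weights gave 282 called genes (188 higher, 94 lower) in place of 0, and 1 of the 9 in place of 0; the cause was not tested. They also turned Shmt1 to 0.0099, Mthfd1 to 0.046 and Mthfd1l to -0.27. Without kidney wild-type 3 and deletion 2, Phgdh was 0.096, Psat1 0.014, Psph 0.14, Shmt1 0.17, Mthfd1 0.080 and Mthfd1l -0.22, and the ratios were -0.18 (Shmt2 to Shmt1), -0.37 (Mthfd1l to Mthfd1) and 0.083 (Phgdh to Psat1). The proximal tubule covariate gave Psph 0.010 and Mthfd1l -0.099; Mthfd1l was -0.044 with median-of-ratios scaling and -0.064 with quantile normalization. In artery, 1 gene was called with a pseudocount of 0.1 and with the B and T cell covariate, and 5 of the 10 differences were positive with the adipocyte covariate (Mthfd1 0.014, Aldh1l2 0.044) or the Schwann cell covariate (Shmt1 0.050, Shmt2 0.019); Shmt2 was 9.2e-05 with the B and T cell covariate.

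Leaving out single libraries gave 3 to 5 positive differences among the 10 in artery, 0 to 1 genes called in artery and 0 to 1 in kidney. Over these fits the artery log2 differences ran from -0.31 to 0.044 (Shmt1), -0.15 to 0.093 (Shmt2), -0.11 to 0.0080 (Mthfd1) and -0.17 to 0.19 (Aldh1l2), with -0.059 to 0.31 for Shmt2 to Shmt1. The kidney values ran from -0.52 to 6.2e-05 (Phgdh), -0.28 to 0.022 (Psat1), -0.39 to 0.062 (Psph), -0.36 to 0.025 (Shmt1), -0.19 to 0.040 (Shmt2) and -0.15 to 0.19 (Mthfd1l). The kidney ratios ran from -0.053 to 0.26 (Shmt2 to Shmt1), -0.15 to 0.54 (Mthfd1l to Mthfd1), -0.31 to 0.016 (Phgdh to Psat1) and -0.20 to 0.18 (Psat1 to Psph), and Slc1a4 between tissues from -0.045 to 0.13.

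Libraries with the same replicate number share only a number: their deviations correlated at 0.325, -0.335, 0.238 and 0.295 in artery and 0.072, -0.011 and 0.276 in kidney. With the number as a replicate block, Phgdh was -0.42 in kidney (limma adjusted p = 0.998) and -0.51 between tissues (limma adjusted p = 0.0146), and 0, 0 and 13082 genes were called in artery, kidney and between tissues; no call among the 10 changed.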
